A study of Oryza sativa Japonica Group with 16 samples.

Results

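The windows described here gained CHH methylation in both crown root (CR) and lateral root (LR) initials of the *ta2* mutant and were not listed as changed in either root type of *OxDRM2*. They were chosen from the authors' deposited tables, each a comparison of 1 mutant with the wild type in 1 root type, by position and by the sign of the *ta2* differences. The rule found 5681 windows among 3454187 window positions and among 185486 windows that gained in both root types of *ta2*. All groups are rice of the Zhonghua 11 background, and the initials were taken by laser microdissection at stage 1, when cell clusters have formed without visible differentiation. The *ta2* line carries a point mutation that alters the splicing of *DNG702*, used because the full knockout is lethal, and *OxDRM2* plants express *DRM2* from a ubiquitin promoter vector. The labels do not say which overexpression line was dissected, and for LR the Methods describe the small type of lateral root only. By the Methods, CR initials came from the coleoptile and were collected fewer days after germination than LR initials, which came from roots. Root type, age and organ therefore cannot be told apart in any contrast of CR and LR. Both mutants have 2 BS-seq libraries per root type, and the files hold the wild type only as the other side of each comparison.

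In the CHH context, where H stands for any base but G, plant methylation has to be set anew after each round of replication. DRM2 is the methyltransferase that does this at sites marked by small RNAs, the pathway known as RNA-directed DNA methylation, largely at short transposons near genes. DNG702 belongs to the DNA glycosylases, which cut out methylated cytosines so that repair puts unmethylated ones in their place. The windows described here address where a change was listed in the glycosylase mutant and not under overexpression of the methyltransferase.

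Each window is 1000 bp long and starts 100 bp after the one before, which puts each stretch of 100 bp into 10 windows, and its difference is given in percentage points of CHH methylation, mutant against wild type. The smallest difference listed was 10 points and the largest q-value 0.00787 in *ta2* CR and 0.00712 in *ta2* LR. A window that is not listed may have changed by less than 10 points, may have missed the q-value, or may not have been read deeply enough, and these cannot be told apart. The tables hold 1 value per comparison, with no replicates and no cytosine counts, so the depth behind a window is unknown and no difference has a replicate error. The paper gives genome coverage per group only. As listed, it was unequal among the mutant groups, highest in *OxDRM2* CR and lowest in *ta2* LR. For both *OxDRM2* CR libraries and 1 *OxDRM2* LR library, the paper's unique read counts and unique ratios do not match. The other *OxDRM2* LR library has the fewest unique reads of the mutant libraries. The order of depth among these groups is therefore uncertain. The sign was read as higher in the mutant, since the columns do not state it. The *ta2* CR table ends, as read, at position 23670800 of chromosome 8, and the rest of chromosome 8 and chromosome 9 were left out, which leaves 345.4 Mb on 11 chromosomes. Positions follow RGAP version 7.0. No genome or annotation of that version was used here, so the genes, transposons and bases inside the windows are not given.

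The rule kept a small remainder of the *ta2* gains. Gains were listed at 10.4% of all window positions in *ta2* CR, at 9.67% in *ta2* LR, and at 5.37% in both. Of the 185486 windows with a gain in both root types, 152592 were listed in both *OxDRM2* tables, 16446 in *OxDRM2* CR alone and 10767 in *OxDRM2* LR alone. The 5681 listed in neither made up 3.06%. For comparison, 27.2% of all window positions were listed in an *OxDRM2* table, with gains at 23.6% of positions in CR and 12.6% in LR. The comparisons of *ta2* and *OxDRM2* within a root type share their wild type libraries, so these shares are what the rule returns and were not tested. The rule also set aside 9 windows with a gain in both *ta2* tables and a loss in an *OxDRM2* table. On chromosome 4, the window from 24673501 to 24674500 gained 44.6 points in *ta2* CR and 37.6 points in *ta2* LR, and it was listed at 31.4 points in *OxDRM2* CR and at -32.4 points in *OxDRM2* LR. Its change thus went up in 3 tables and down in the fourth.

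The gains of the chosen windows were mostly small. In *ta2* CR, their differences ran from 10.0 to 97.3 points with a median of 15.8 points and quartiles of 12.4 and 22.7 points. In *ta2* LR, they ran from 10.0 to 94.8 points with a median of 19.6 points and quartiles of 14.3 and 28.2 points. All windows with a gain in both root types had higher medians, 23.4 points in CR and 27.6 points in LR. The lower of the 2 differences was under 12 points in 28.4% of the chosen windows, against 11.8% of all *ta2* gains in both root types. These values were used by the rule and are given as a description, without a test. At the boundary, the lowest difference of a chosen window was 10.0 points in each *ta2* table, not necessarily in the same window. A further 752 windows were kept out only by an *OxDRM2* CR difference of 10 to 11 points and 577 only by such a difference in *OxDRM2* LR. A further 34270 gains of *ta2* CR and 42074 gains of *ta2* LR were listed in no other table and fell outside because the other root type was not listed.

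Windows without an *OxDRM2* listing became scarcer as the *ta2* gain grew, up to the strongest gains. Binned by the lower of the CR and LR differences, they were 7.35% of the *ta2* gains at 10 to 12 points, 3.21% at 15 to 20 points and 0.963% at 30 to 40 points. The share was 0.539% at 60 to 80 points. It stood at 1.74% from 80 points upward, where 26 of 1494 windows were chosen ones. These 26 windows lay in only 4 regions, so the rise in the last bin rests on a few places.

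**Figure D1:**
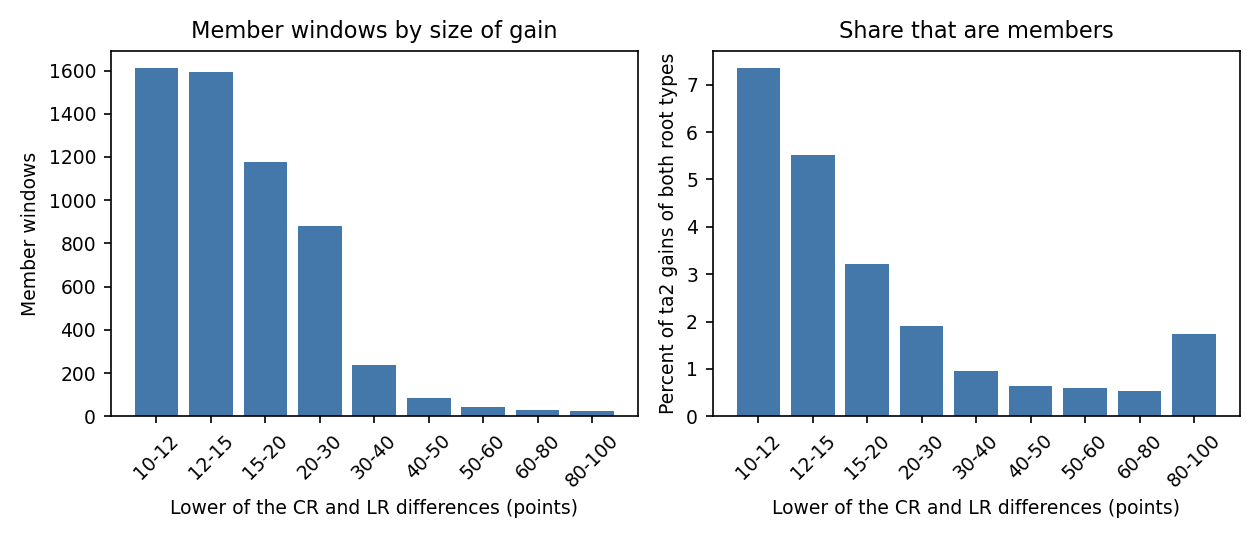
The bars show the number of chosen windows (left) and their percentage among all windows with a gain in both root types of *ta2* (right), by the lower of the CR and LR differences in percentage points. Counts fell from 1611 windows at 10 to 12 points to 26 windows at 80 points and above, while the percentage fell from 7.35% to 0.539% at 60 to 80 points and was 1.74% in the last bin.

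Gains were larger in LR than in CR in most of the chosen windows, as they were among all *ta2* gains. The LR difference exceeded the CR difference in 3676 windows, or 64.7%, and the share was 64.9% over all windows with a gain in both root types. The difference between the root types had a median of 2.57 points in favour of LR, with quartiles of -2.16 and 9.49 points. Differences lay within 5 points of each other in 2536 windows, or 44.6%, and in 40.8% of all windows with a gain in both root types. A gap of over 20 points in favour of LR was found in 9.10% of the chosen windows and one in favour of CR in 2.36%, close to the 8.09% and 2.09% of all *ta2* gains. Across the 5681 windows, CR and LR differences were related with a Pearson r of 0.55 and a Spearman rho of 0.40, and across the means of 2347 merged regions with 0.48 and 0.35. Over all 185486 windows with a gain in both root types, r was 0.76 and rho 0.69. Overlapping windows share cytosines and the chosen windows span a narrower range of differences, so these coefficients only describe the plotted values.

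**Figure D2:**
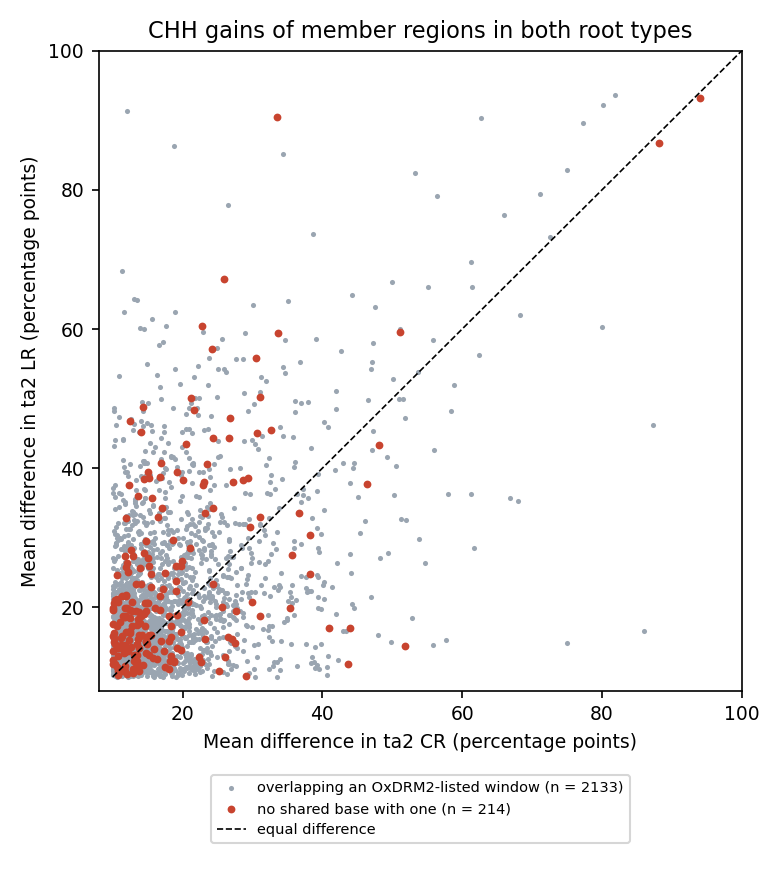
Each point is 1 merged region, placed by its mean difference from the wild type in *ta2* CR (horizontal) and in *ta2* LR (vertical), in percentage points. The 214 regions that shared no base with an *OxDRM2*-listed window are in red and the 2133 others in grey, and 1491 of all 2347 regions lie above the dashed line of equal difference.

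Some regions were far from balanced between the root types, and 3 are given here that were chosen after their values were seen. On chromosome 1, the region from 7354501 to 7356000 gained at least 74.9 points in *ta2* CR in each of its 6 windows but 10.6 to 23.8 points in *ta2* LR. The reverse held on chromosome 2 from 6456001 to 6457600, where 6 windows gained 14.6 to 22.9 points in CR and 45.6 to 68.1 points in LR. On chromosome 11 from 10911901 to 10913800, 10 windows gained 11.7 to 42.5 points in CR and 36.3 to 84.8 points in LR. In the first of these regions every LR value lay below every CR value, and in the second the order was the opposite. In the third the ranges overlapped, but within each window the CR value was the lower one.

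Merged where they overlap or touch, the chosen windows formed 2347 regions that together covered 2741.9 kb, or 0.794% of the sequence compared. The regions were short. Their median length was 1100 bp and the longest measured 2500 bp, while 1141 of them, or 48.6%, were a single window. Only 338 regions held at least 5 windows, and none held more than 11. Longer regions had somewhat larger gains, with median region means of 17.6 points in CR and 21.6 points in LR for regions of 5 or more windows, against 14.6 and 17.2 points for single windows. Within a region of at least 5 windows, the differences varied by a median of 5.84 points in CR and 7.31 points in LR between the lowest and the highest window. The SD among the means of these regions was 12.2 points in CR and 13.1 points in LR. Windows of a region overlap, so their spread is small by construction, and these values are not set against each other.

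Most of the chosen windows overlapped a window listed in *OxDRM2*, a larger share than among all positions that *OxDRM2* did not list. Distances run from the start of a window to the start of the nearest listed one. The nearest window listed in an *OxDRM2* table started 100 bp away for 1908 of them, or 33.6%, and within 200 bp for 2804, or 49.4%. In all, 4792 windows, or 84.4%, overlapped an *OxDRM2*-listed window, on 1 side in 3029 cases and on both sides in 1763. Among all window positions with no *OxDRM2* listing, 8.91% had a listed window 100 bp away, 16.2% within 200 bp, and 50.1% overlapped one. These positions include sequence that may not have been read, and the shares are given as a description, without a test. The *OxDRM2* difference of the chosen windows themselves is not listed, so whether it lay just under 10 points is not known. In the 1311 chosen windows with an *OxDRM2* CR listing 100 bp away, that neighbour had a median of 12.9 points. It was under 12 points in 41.2%, against 17.1% of all *OxDRM2* CR gains. In LR, the 1028 such neighbours had a median of 13.8 points, with 35.7% under 12 points against 12.5% of all *OxDRM2* LR gains. Of these neighbours, 2 in CR and 3 in LR were losses. By choice, each of these neighbours lies beside a window that *OxDRM2* does not list and that shares most of its bases. That choice favours low values, while all *OxDRM2* gains include windows inside longer runs. No share was computed for other windows at the edge of a listed run, so nothing about the chosen windows follows from these shares.

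**Figure D3:**
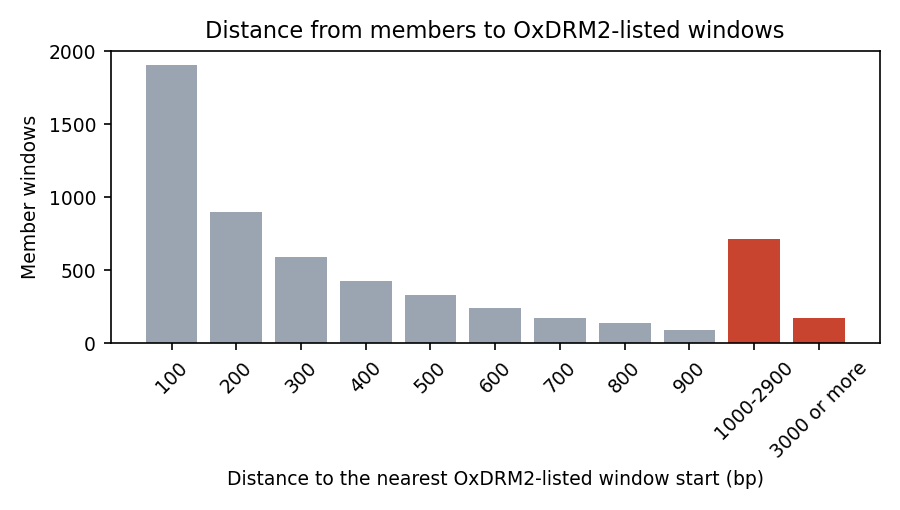
The bars count the chosen windows by the distance in bp from their start to the start of the nearest window listed in an *OxDRM2* table. Grey bars are the 4792 windows that overlap such a window, falling from 1908 at 100 bp to 91 at 900 bp, and red bars are the 717 windows at 1000 to 2900 bp and the 172 at 3000 bp or more.

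Merging all windows with a gain in both root types of *ta2* gave 25717 regions, of which 2338, or 9.09%, held a chosen window. In 714 of these regions every window was a chosen one, with 1904 windows in all. The other regions also held windows listed in *OxDRM2*, and of the 1776 runs of chosen windows in them, 1398, or 78.7%, lay at an end of the *ta2* region. No share at the ends was computed for other windows, so this count is a description only. Over all regions, *ta2* gains fell off on both sides of the centre. Upstream and downstream here mean lower and higher positions, since the regions have no strand. The profile was not symmetric, with *ta2* CR gains at 66.4% of the regions 100 bp upstream and 72.7% 100 bp downstream, so the sides are not set against each other. At the centre 98.2% of the regions had a listed gain in *ta2* CR and 98.1% in *ta2* LR, values that the rule sets, and at 5000 bp upstream these were 10.8% and 11.5%, next to 10.4% and 9.67% of all window positions. *OxDRM2* CR gains were at 33.2% of the regions at 1000 bp downstream and at 29.9% at 1000 bp upstream, above 24.1% at 5000 bp downstream and 24.6% upstream.

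**Figure D4:**
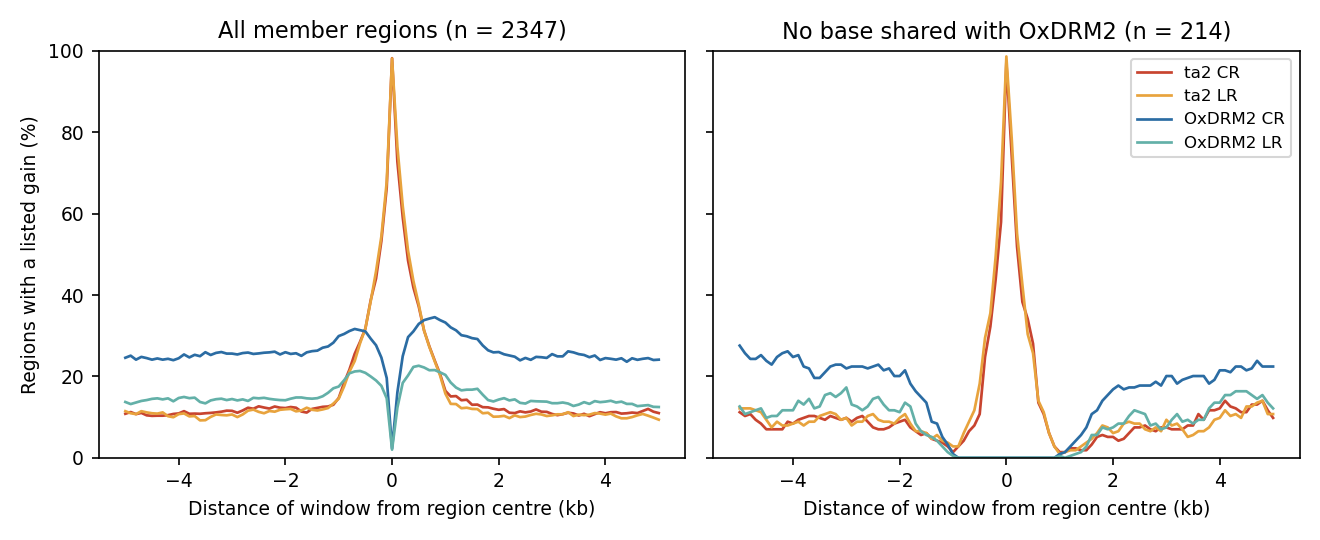
The lines give the percentage of regions with a listed gain in each of the 4 tables, against the distance in kb of the window from the region's centre, for all 2347 regions (left) and for the 214 that share no base with an *OxDRM2*-listed window (right). The *ta2* peak and the *OxDRM2* dip at the centre are set by the rule. At 5000 bp towards lower positions the *ta2* CR line is at 10.8% on the left and 11.2% on the right.

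The windows that stood apart are the stricter candidates. No base was shared with an *OxDRM2*-listed window by 889 windows, or 15.6% of the chosen ones, and 214 regions consisted of such windows only. Their gains were not generally larger, with median differences of 15.2 points in CR and 20.3 points in LR, against 15.9 and 19.4 points in the windows that overlapped an *OxDRM2* listing. Their upper tail was heavier. Above 30 points in both root types lay 99 of the 889 windows, or 11.1%, and 6.66% of the overlapping ones. These 99 windows lay in only 30 regions, and 20 of them, above 80 points, in 2 regions, so the tail rests on few places. The LR mean was the larger one in 148 of the 214 regions, or 69.2%, next to 63.5% of all merged regions. Farther away, 52 regions lay at least 3000 bp and 12 regions at least 5000 bp from an *OxDRM2*-listed window. By comparison, the windows with a gain in both root types of *OxDRM2* and no *ta2* listing numbered 71653, which is 22.8% of the *OxDRM2* gains in both root types, and 34.0% of them shared no base with a *ta2*-listed window. This contrast has no test, and the tables differ in how many windows they list.

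The strongest of the separate regions lay on chromosome 4 from 1599501 to 1601400. Its 10 windows gained 86.8 to 97.3 points in *ta2* CR and 92.4 to 94.8 points in *ta2* LR, with means of 94.0 and 93.1 points. A gain of 97.3 points leaves the wild type CR at most 2.72% and needs at least 97.3% in the mutant, which follows from levels being bounded by 0% and 100%. From the start of its nearest window, the closest *OxDRM2* CR window started 7300 bp away and the closest *OxDRM2* LR window 16500 bp away. The *ta2* tables were almost silent around it too, with 0 windows listed in CR and 1 in LR within 3000 bp outside the region. All 10 windows have only the 100 bp from 1600401 to 1600500 in common.

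A region with gains of similar size lay on chromosome 6 from 17708401 to 17710300. Here the 10 windows gained 87.8 to 88.4 points in *ta2* CR and 85.6 to 87.8 points in *ta2* LR, so every LR value lay below every CR value, by little. The wild type CR level can have been at most 11.6% in the window with the largest gain. Its windows again have only 100 bp in common, from 17709301 to 17709400. The nearest *OxDRM2*-listed window started 1900 bp away in CR and 2600 bp away in LR. Within 3000 bp outside this region, 12 *OxDRM2* CR windows and 5 *OxDRM2* LR windows were listed, all higher than the wild type. Around the region on chromosome 4 none were listed in *OxDRM2*. In these regions on chromosomes 4 and 6 lay all 20 of the separate windows above 80 points. The listed p-values were small there, with the largest at a log10 of -183.9 on chromosome 4 and -223.2 on chromosome 6 in *ta2* CR, and listed as 0 in *ta2* LR. These are the authors' p-values of 1 comparison each, and no replicate spread was computed for them here.

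The other regions above 80 points touched *OxDRM2* listings. On chromosome 8 from 1548401 to 1550200, 9 windows gained 68.3 to 85.2 points in *ta2* CR and 91.8 to 92.3 points in *ta2* LR, with an *OxDRM2* CR window listed 100 bp away. On chromosome 5, the single window from 14075801 to 14076800 gained 81.9 points in CR and 93.6 points in LR, with an *OxDRM2* LR window 800 bp away.

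Next in strength among the separate regions was chromosome 3 from 8332101 to 8333500. Over 5 windows, gains of 44.0 to 56.3 points in *ta2* CR stood beside 43.7 to 66.5 points in *ta2* LR. Around it the *ta2* tables went both ways, with 10 CR windows listed within 3000 bp outside it, 6 of them higher and the others lower than the wild type, and 1 LR window, which was lower. The nearest *OxDRM2* window started 1000 bp away in LR, touching the region, and 1700 bp away in CR. Within the same 3000 bp, 16 *OxDRM2* LR windows were listed, 11 of them higher, and 3 *OxDRM2* CR windows, 2 of them higher. On chromosome 11 from 25757001 to 25759000, 11 windows gained 45.6 to 49.0 points in CR and 33.5 to 47.7 points in LR. It had the most windows of any separate region, and nothing was listed within 3000 bp of it in any of the 4 tables. On chromosome 7 from 17640801 to 17642700, 6 windows with a gap between them gained 25.6 to 62.7 points in CR and 27.3 to 48.6 points in LR, and the gap was listed in *ta2* LR. The nearest *OxDRM2* CR window started 1900 bp away there, with 12 listed within 3000 bp outside the region.

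Lower gains marked the remaining separate regions named by the rule. On chromosome 2 from 10275401 to 10276800, the 5 windows differed by 36.6 to 36.7 points in CR and by 32.1 to 37.5 points in LR, and the nearest *OxDRM2*-listed window was 5400 bp away. A second region on chromosome 3, from 27129701 to 27131600, gained 28.1 to 39.0 points in CR and 31.0 to 38.3 points in LR over 10 windows. A second region on chromosome 4, from 19619401 to 19620900, gained 33.7 to 58.4 points in CR and 29.0 to 30.6 points in LR over 6 windows, of which a single one stood above the rest in CR. For both, an *OxDRM2* CR window was listed 1100 bp away.

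**Figure D5:**
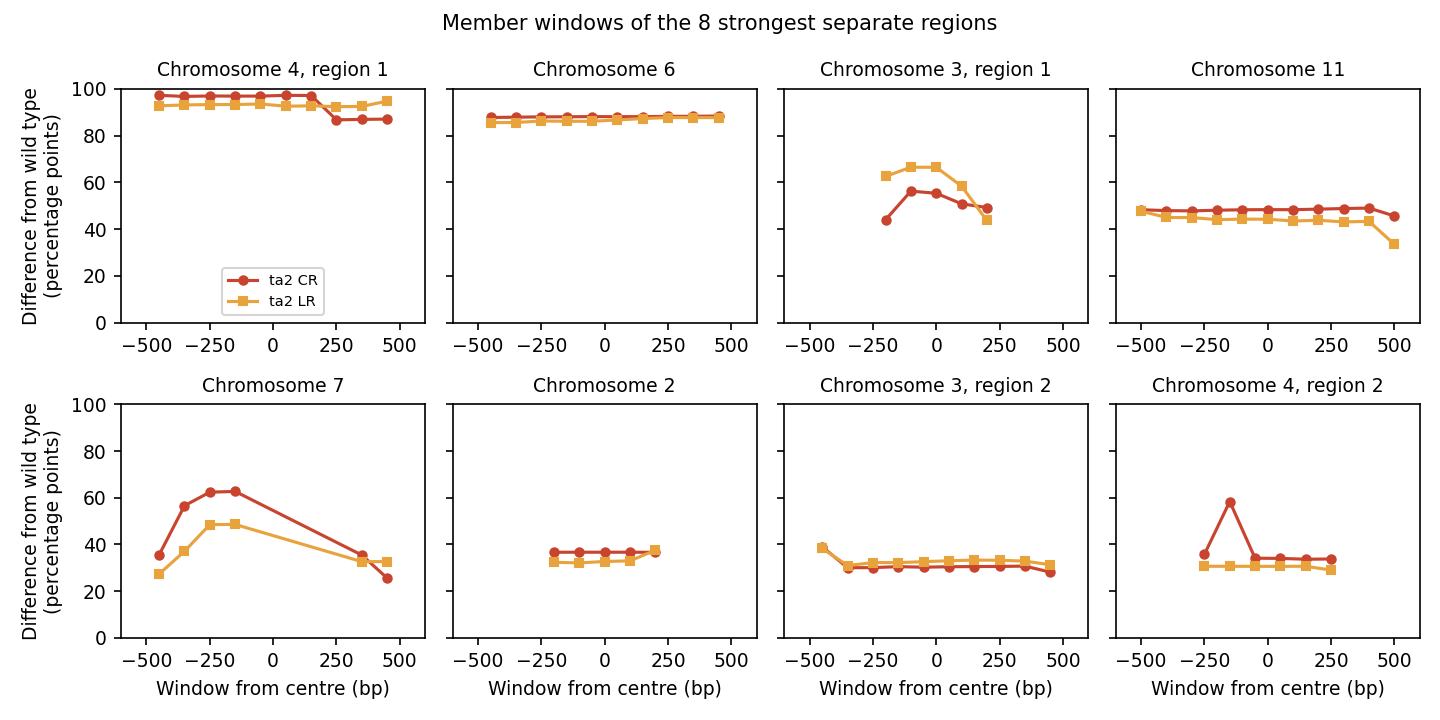
Points give the difference from the wild type in percentage points for each chosen window of the 8 strongest separate regions, in *ta2* CR (circles) and *ta2* LR (squares), against the distance in bp of the window from the region's centre, with lines only joining the points of a table. The regions on chromosome 4 (first) and chromosome 6 stay at or above 85.6 points in both root types, and the others lie between 25.6 and 66.5 points.

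The regions with the most windows were often modest in gain. Besides the region on chromosome 11 described above, 3 regions reached 11 windows. On chromosome 8 from 21667601 to 21669600, the gains were at most 17.2 points in CR and 39.4 to 54.1 points in LR, so that every LR value lay above every CR value. On chromosome 8 from 20831601 to 20833600, they were 11.7 to 15.2 points in CR and 12.4 to 20.4 points in LR. On chromosome 12 from 9228601 to 9230600, they were 10.1 to 19.3 points in CR and 10.9 to 24.9 points in LR, with an *OxDRM2* CR window 100 bp away. A further 29 regions had 10 windows, which is the number of windows that hold a given stretch of 100 bp, and 14 of these stood apart from *OxDRM2* listings.

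Within classes of similar difference, the listed p-values of the chosen windows were less extreme than those of the other *ta2* gains. Among windows of 20 to 30 points in *ta2* CR, the median of -log10 p was 57.8 in 1123 chosen windows and 123.8 in 47790 others. Among windows of 20 to 30 points in *ta2* LR, it was 90.2 in 1492 chosen windows and 167.1 in 45318 others. The chosen windows had the lower median in each of the 6 size classes compared in CR and in the LR classes alike. Differences were not matched further within a class. At equal difference, a p-value depends on the number of cytosine calls, on the level in the wild type and possibly on the spread between replicates. These cannot be told apart here, and the part of any of them in the missing *OxDRM2* listings was not tested.

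The chosen windows were spread over the genome. They made up from 2.85% of the *ta2* gains in both root types on chromosome 8 to 3.50% on chromosome 11, and from 0.129% of window positions on chromosome 8 to 0.194% on chromosome 3. Median differences by chromosome ran from 14.8 points on chromosome 11 to 17.4 points on chromosome 3 in CR and from 18.9 points on chromosome 7 to 21.2 points on chromosome 11 in LR. Cut into 351 bins of 1 Mb, the sequence had a median of 7 regions per bin, with quartiles of 5 and 9, and 2 bins had none. The fullest bin, the 39th of chromosome 1, held 16 regions. Over the bins, the number of chosen windows was related to the number of *ta2* gains in both root types with a Pearson r of 0.34 and a Spearman rho of 0.31, where the chosen windows are a subset of those gains.

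Genes could be linked to these windows only through the study's list of promoter bins, of which 1997 were read and 1853 lie in the sequence compared. The list is held in part, and it covers genes that the study had picked by their expression and methylation, so no share of genes was drawn from it. Of these 1853 bins, a chosen window touched those of 17 loci, and any *ta2* gain in both root types touched 335. The chosen regions cover 0.794% of the sequence compared, and whether they favour these bins was not tested. The most windows, 5 each, lay over the bins of LOC_Os03g35960 and LOC_Os03g62650, both with an *OxDRM2*-listed window 100 bp away. At LOC_Os03g35960 they gained 27.2 to 31.0 points in *ta2* CR and 28.8 to 30.6 points in *ta2* LR. At LOC_Os03g62650 the gains were lower, at most 15.1 points in *ta2* CR and 11.2 to 21.7 points in *ta2* LR. Of the 17 loci, 2 had windows apart from any *OxDRM2* listing. One of them, LOC_Os01g12130, had 3 windows at 10.7 to 14.8 points in CR and 10.2 to 10.8 points in LR, near the limit of the tables. The sources used here give these loci no names. Among the genes that the study names, *RL9*, *MCM8* and *RDR2* have a bin in the list, and none of the 3 bins was touched by a chosen window. The other genes that the study names, *CRL1* and *bZIP65* among them, have no bin in the part read and were not checked. No conclusion about the named genes is drawn from 3 bins. The study's gene table gives *RL9* as a putative ribosomal protein and *MCM8* as a putative subunit of the minichromosome maintenance family, while *RDR2* is an RNA polymerase that makes double-stranded RNA for RNA-directed DNA methylation. The positions of *DNG702* and *DRM2* were not used here.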

How the data were processed

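BS-seq of stage 1 CR and LR initials was analysed from 4 deposited tables, each setting *ta2* or *OxDRM2* against the wild type in CR or LR, with 2 libraries per mutant group and 8 in all. RNA-seq samples were not used. The Methods give BS-seeker2 (v2.1.8) as the aligner and RGAP version 7.0 as the genome, with unique reads kept and duplicates removed, and the submitters' processing notes also name methylKit. The authors' deposited p-value, q-value and difference per window were used as they stand. These columns are the authors' own comparisons, and they were used because the tables hold nothing else. The Methods describe windows of 50 bp, summed over replicates, whereas the deposited windows are 1000 bp, and how replicates entered these is not given in the sources used here.

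Windows were joined by chromosome and start. Those with a positive difference in both *ta2* tables and no row in either *OxDRM2* table were kept, merged where they overlap or touch, and measured to the nearest *OxDRM2*-listed start, a distance of at least 1000 bp meaning no shared base. Joining, merging and distances were tested on simulated data. The number of window positions is that of starts at steps of 100 bp as far as the last window in any table, per chromosome. No test was run, since the rule used these differences and no values per replicate were used. The members, the lists and the rules were chosen with earlier results of these data known. Named regions are the 6 with most windows, ties broken by the mean of the lower difference, a step added after the values were seen, and the 8 separate regions of at least 5 windows with the highest such mean. Alternatives were higher limits on the difference, a stricter q-value, windows that do not overlap, distance to *OxDRM2* listings and other merging. The tools were pandas 2.3.3 and numpy 2.4.6 under Python 3.11.15, with figures by matplotlib 3.10.9.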

Additional observations from a re-analysis of the deposited data

How the results depend on the processing

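The number of chosen windows, 5681, fell to 1298 above 20 points in both *ta2* tables, 418 above 30 points and 96 above 50 points, to 2358 when overlapping windows were dropped, and to 2877 and 889 without an *OxDRM2*-listed window within 200 bp or sharing a base. A q-value under 0.001 left 5680. The 2347 regions became 338 with at least 5 windows, 214 without a base shared with an *OxDRM2* listing and 2610 when merged only within 100 bp. Among *ta2* gains in both root types, the share of 3.06% became 1.33%, 0.806% and 0.682% above 20, 30 and 50 points, and it was 8.87% for windows not listed in *OxDRM2* CR and 11.9% for those not listed in *OxDRM2* LR. Medians of 15.8 points in CR and 19.6 points in LR became 15.0 and 18.5 points for windows that do not overlap, and 15.2 and 20.3 points for windows that share no base with an *OxDRM2* listing. The share with the larger difference in LR, 64.7%, was 63.8% and 68.4% in these subsets. Counts fall by construction under each narrower choice. The limit of 50 points and the count of separate regions were chosen after seeing the data.

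No paired analysis was possible because each table column is a mutant against wild type comparison without replicate values, and for the same reason no replicate was left out. The depth behind each window is unknown, and changes under 10 points were not analysed here.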
